A study of Mus musculus with 30 samples.

Results

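The genes that control the passage from G1 into S phase were examined in AML12 cells in which the forkhead transcription factors FoxK1 and FoxK2 had been knocked down. They comprise the D cyclins Ccnd1, Ccnd2 and Ccnd3, the E cyclins Ccne1 and Ccne2, the kinases Cdk4 and Cdk6, and the CDK inhibitors Cdkn1a, Cdkn1b and Cdkn2c. The members were a fixed list of 10 mouse symbols, matched to the Ensembl identifiers of the count tables. All 10 were found among 49089 identifiers, and all 10 were among the 11368 genes with enough counts to be tested.

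AML12 is a hepatocyte line from mice transgenic for human TGF alpha, and RNA-seq of polyadenylated RNA was done on 30 samples in 8 groups. Control cells carried a non-silencing siRNA, FoxK1 KD and FoxK2 KD cells an siRNA against 1 of the factors, and double knockdown (DKD) cells siRNAs against both. Every culture was serum starved overnight in medium with 0.1% BSA and was then left basal or given 100 nM insulin for 6 h. The labels give basal samples a treatment time of 0 min, while the study's methods describe mock treatment. Each group held 4 samples, except Control and DKD cells after insulin with 3 each. Transient siRNA lowers a transcript without removing it, and nothing in the labels says that samples were separate cultures, so p-values measure the spread between these samples, which may be technical.

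D cyclins are made in response to growth factors and bind Cdk4 or Cdk6, and the complex begins the phosphorylation of the retinoblastoma protein. E cyclins bind Cdk2 and complete that step, which frees E2F factors to drive S phase genes. Cdkn2c, an INK4 protein, blocks Cdk4 and Cdk6, whereas the Cip/Kip proteins encoded by Cdkn1a and Cdkn1b mainly restrain complexes with Cdk2. In liver, most hepatocytes are quiescent, and Ccnd1 is a well-known marker of their entry into the cycle. Insulin is a growth signal for hepatocytes, and Cdkn1b is a known target of the FoxO forkhead factors, which insulin keeps out of the nucleus.

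Libraries held 2141460 to 5668270 counts, and levels are given as CPM (counts scaled to a fixed library total) with library sizes adjusted by the trimmed mean of M values (TMM). At baseline Foxk1 had 45.2% of its Control level where FoxK1 alone was targeted and 57.1% where both were, and after insulin 58.2% and 64.6%. The Control level of Foxk1 was itself lower after insulin, at 53.0 against 81.4 CPM (log2 fold change -0.62, adjusted p = 3.70e-04 by edgeR). In FoxK1 KD cells it was 36.8 CPM at baseline and 30.9 CPM after insulin, so the higher percentages do not mean more Foxk1. Foxk2 had 33.7% of its Control level where FoxK2 alone was targeted and 35.8% where both were, and after insulin 40.4% and 39.5%. Where FoxK1 alone was targeted, Foxk2 was also lower at baseline, at 83.4% of Control (log2 fold change -0.26, adjusted p = 0.0487 by edgeR). After insulin it was at 85.5% there (adjusted p = 0.180). Basal FoxK2 KD cells had Foxk1 at 85.8% of Control (adjusted p = 0.441). Of the hepatocyte markers, Krt18, Krt8 and Hnf4a had mean levels of 1102, 706 and 134 CPM, Alb had 10.4 CPM, and Apoa1, Apoa2, Apoe, Cyp2e1 and Cps1 had too few counts to test. Vim, a mesenchymal marker, had a mean of 785 CPM, while Pdgfrb, another, had 0 counts. Of 4 cholangiocyte markers Epcam had 0 counts, but 3 could be tested, and the list summed to 534 to 1073 CPM per library. Endothelial markers summed to 0 to 2.22 CPM and leukocyte markers to 4.09 to 22.1 CPM. The libraries also fell into 2 sets: of 14019 genes with at least 30 counts, 55 were lower and 83 higher in every one of the 12 basal Control, FoxK1 KD and FoxK2 KD libraries than in each of the other 18. This split was seen in these data before it was counted, and no other split was counted beside it. No member was among these genes, and no label names a batch. The comparison of DKD with Control cells at baseline and the insulin comparisons in Control, FoxK1 KD and FoxK2 KD cells cross this division, which cannot be told apart from those groups. The difference of the insulin response between DKD and Control cells carries it as well, since basal Control is the only one of its 4 groups among the 12 libraries, whereas in the same difference for FoxK1 KD or FoxK2 KD cells both responses cross it.

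The most abundant members per length were Cdk4 and Ccnd1. In basal Control cells, Cdk4 had 202 ± 97.1 CPM per kb of exon (SD, n = 4) and Ccnd1 had 88.0 ± 11.8. Cdkn1a had 70.2 ± 14.9 CPM per kb and Cdkn1b 58.5 ± 12.5, while Cdk6, Cdkn2c and Ccnd2 had 10.8 ± 0.752, 8.82 ± 0.650 and 8.22 ± 1.60. Ccnd3, Ccne1 and Ccne2 were the lowest, at 3.31 ± 0.103, 2.75 ± 0.172 and 2.54 ± 0.112 CPM per kb. Ccnd1 thus made up 88.4% ± 0.599 of the D cyclin level per kb in basal Control cells, and its mean share stayed between 86.6% and 90.4% in the 8 groups. The range of group means was widest for the E cyclins, with a ratio of the highest to the lowest mean CPM of 3.68 for Ccne1 and 2.34 for Ccne2.

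**Figure D1:**
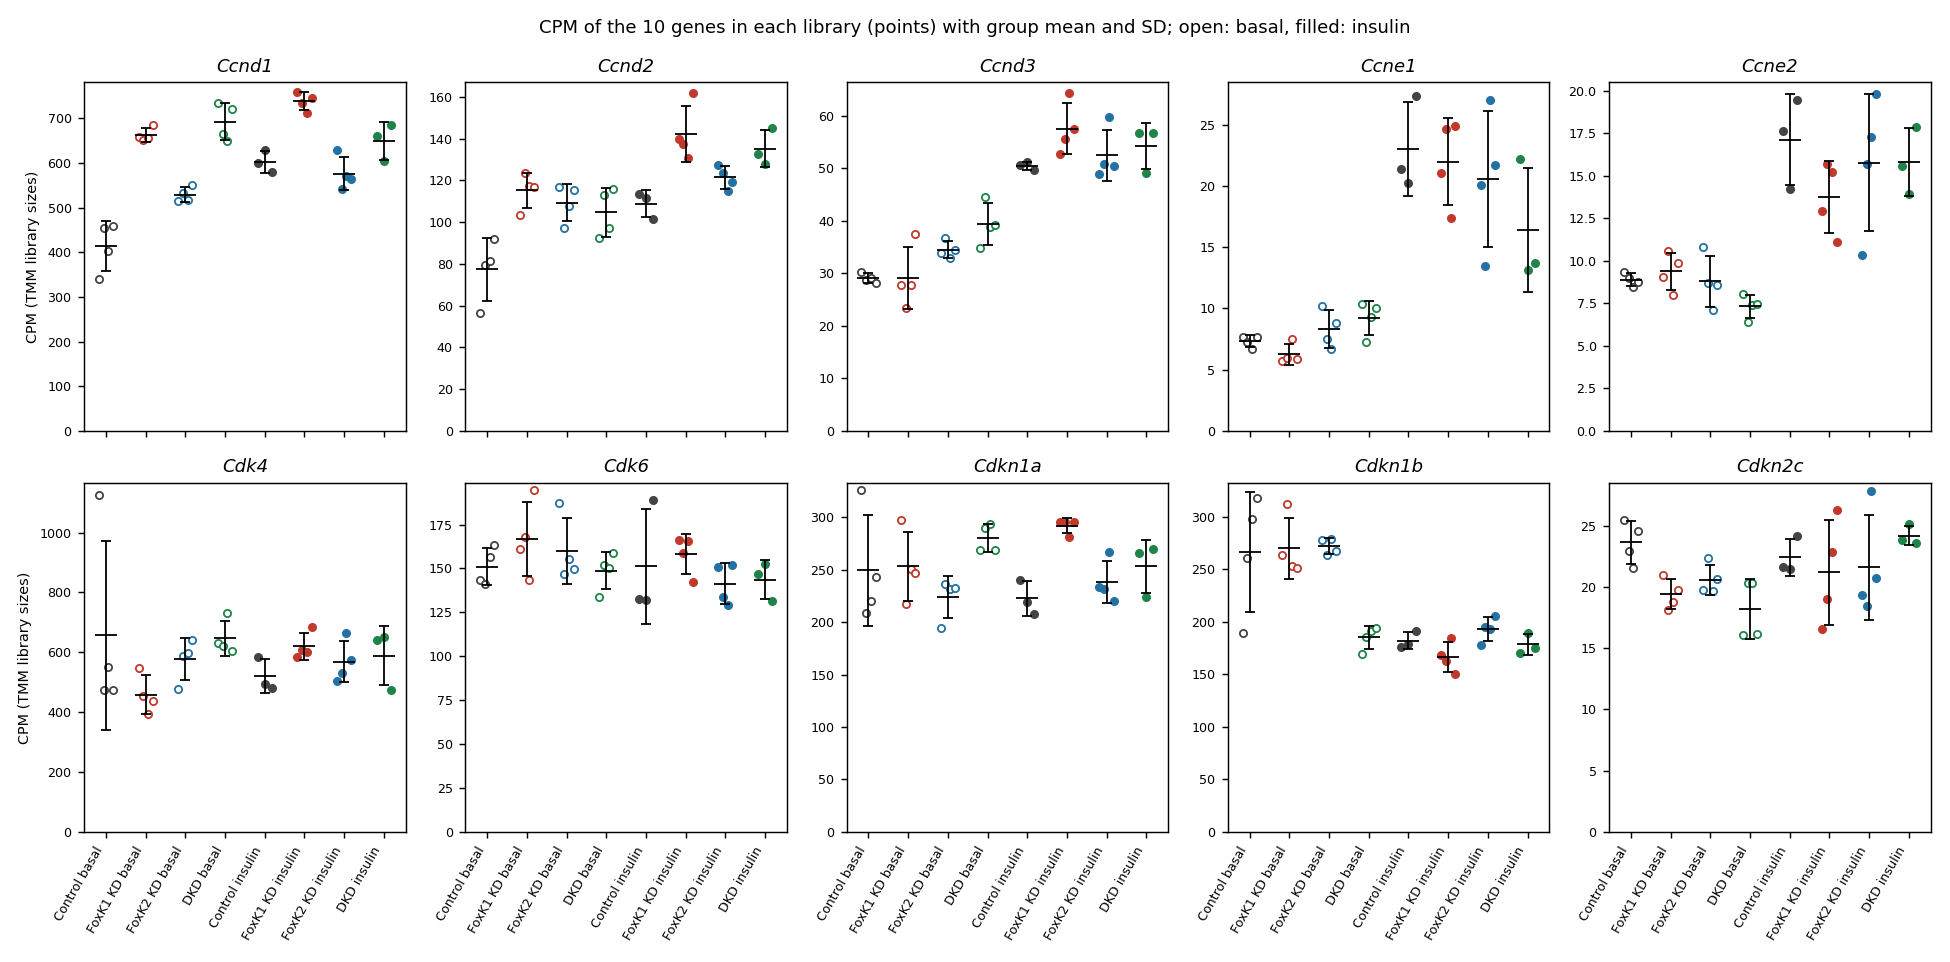
CPM (TMM library sizes, linear axis from 0) of the 10 genes in each of the 30 libraries, by group, with points for libraries, a bar for the group mean and whiskers for 1 SD; open points are basal and filled points insulin. Ccnd1 is lowest in the basal Control libraries (340.2 to 459 CPM), Ccne1 and Ccne2 are higher in insulin than in basal groups, and 1 Control library has a Cdk4 level of 1126 CPM.

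To ask what loss of FoxK1, FoxK2 or both did before insulin, each knockdown was set against Control cells at baseline. Ccnd1 and Ccnd2 rose in all 3 knockdowns. In DKD cells Ccnd3 also rose, and the inhibitors Cdkn1b and Cdkn2c fell. Neither E cyclin and neither kinase passed the test in any of the 3 comparisons. Calls were made with edgeR's quasi-likelihood test at a Benjamini-Hochberg adjusted p below 0.05 over all 11368 genes, and the 3 comparisons share the same 4 Control samples. In FoxK1 KD cells 2 of 10 members rose and 0 fell, while 3.39% of all genes tested rose and 4.71% fell. In FoxK2 KD cells 2 members rose and 0 fell, against 0.211% and 0.167% of all genes. In DKD cells 3 members rose and 2 fell, against 10.3% and 10.8% of all genes. Libraries did not overlap with Control for 3 members and 9.98% of all genes in FoxK1 KD cells. The same held for 3 members and 4.67% in FoxK2 KD, and for 5 members and 18.4% in DKD cells. Where a fold change above 1.5 was also required, the members called were Ccnd1 in FoxK1 KD cells, with 2.08% of all genes called, none in FoxK2 KD cells, with 0.158%, and Ccnd1 in DKD cells, with 5.5%. At an adjusted p below 0.25, FoxK1 KD cells had 4 members called (Ccnd1, Ccnd2, Cdk4 and Cdkn2c) and 26.6% of all genes. Control replicate 1 stood apart from the other basal Control libraries in several members, and without it the members called were 2 for FoxK1 KD, 0 for FoxK2 KD and 7 for the double knockdown. The genes called over all moved too, to 408 for FoxK1 KD, 13 for FoxK2 KD and 3063 for DKD cells (3.59%, 0.114% and 27% of 11356 genes), from 920, 43 and 2398 with all libraries.

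Ccnd1 (ENSMUSG00000070348.5, chr7:144929931-144939925 in GRCm38, minus strand) encodes cyclin D1. Its level in basal Control cells was 340.2, 455, 403 and 459 CPM. It was 658, 651, 657 and 685.5 CPM in FoxK1 KD cells and 735, 665.5, 649 and 721 CPM in DKD cells. FoxK2 KD cells lay between, with 514, 533, 518 and 550.4 CPM, so that no library of any knockdown overlapped the Control libraries. The change was 1.60-fold in FoxK1 KD cells (log2 fold change 0.68, SE 0.08, adjusted p = 2.78e-07) and 1.67-fold in DKD cells (0.74, SE 0.08, adjusted p = 1.82e-08). In FoxK2 KD cells it was 1.27-fold (log2 fold change 0.35, SE 0.08, adjusted p = 0.0255). The FoxK2 KD call was lost without Control replicate 1 (log2 fold change 0.27, adjusted p = 0.0896) and without FoxK2 KD replicate 2, 3 or 4 (0.33 to 0.36, adjusted p = 0.0714 to 0.106). With only FoxK2 KD and Control basal cells in the fit its adjusted p was 0.526, and 0.00927% of all genes were called. Across the 8 groups the order of Ccnd1 means ran from basal Control through basal FoxK2 KD, FoxK2 KD insulin, Control insulin, DKD insulin, basal FoxK1 KD and basal DKD to FoxK1 KD insulin. Only basal Control and basal FoxK2 KD were neighbours in this order whose libraries did not overlap. Ccnd1 shares exon sequence with LTO1 on the other strand, which had 2556 counts over all samples against 65013 for Ccnd1, and the strand setting of the counting is not given.

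Ccnd2 (ENSMUSG00000000184.12, chr6:127125162-127152193, minus strand) encodes cyclin D2. Basal Control libraries held 56.4, 79.5, 81.4 and 92.1 CPM. The values were 104, 123, 117 and 117 CPM in FoxK1 KD, 117, 97.4, 108 and 115 CPM in FoxK2 KD, and 92.5, 113, 97.2 and 116 CPM in DKD cells. Every knockdown library was above every Control library, by a narrow margin for DKD. Ccnd2 rose 1.48-fold in FoxK1 KD (log2 fold change 0.56, SE 0.10, adjusted p = 5.55e-04), 1.40-fold in FoxK2 KD (0.49, SE 0.10, adjusted p = 0.0225) and 1.35-fold in DKD cells (0.43, SE 0.10, adjusted p = 0.00298). The FoxK2 KD call was lost without Control replicate 1 (0.37, adjusted p = 0.0724) and without FoxK2 KD replicate 1, 3 or 4 (0.45 to 0.50, adjusted p = 0.0640 to 0.0950). With only the groups compared in the fit, the call was lost in all 3 knockdowns, with an adjusted p of 0.0819 in FoxK1 KD, 0.526 in FoxK2 KD and 0.0565 in DKD cells.

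Ccnd3 (ENSMUSG00000034165.16, chr17:47505051-47599691, plus strand) encodes cyclin D3. It had 30.3, 28.8, 29.0 and 28.2 CPM in basal Control cells and 34.7, 44.5, 38.9 and 39.3 CPM in DKD cells, with no overlap. DKD cells had 1.36 times the Control level (log2 fold change 0.44, SE 0.11, adjusted p = 0.00402). This call was lost when GC content and gene length were corrected for (log2 fold change 0.27, adjusted p = 0.0899). In FoxK1 KD cells Ccnd3 had a log2 fold change of 0.01 (95% interval -0.22 to 0.23), and in FoxK2 KD cells 0.25 (0.03 to 0.47, adjusted p = 0.356), and neither was called. The FoxK2 KD libraries, at 32.85 to 36.7 CPM, did not overlap those of Control either, while the FoxK1 KD libraries did, at 23.4 to 37.5 CPM. Ccnd3 overlaps exons of Bysl on the other strand, which had 2756 counts against 4527 for Ccnd3.

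Cdkn1b (ENSMUSG00000003031.14, chr6:134920401-134925513, plus strand) encodes the Cip/Kip inhibitor p27. In basal Control cells it had 189, 261, 298 and 318 CPM. FoxK1 KD cells held 263, 313, 253 and 251 CPM and FoxK2 KD cells 278, 264, 278 and 267 CPM, within the Control range. DKD cells were lower, with 169, 185, 192 and 194 CPM, and overlapped Control cells only through Control replicate 1. The level in DKD cells was 0.692 times that of Control (log2 fold change -0.53, SE 0.10, adjusted p = 2.83e-04), and without Control replicate 1 the log2 fold change was -0.67 (adjusted p = 1.64e-07). In the single knockdowns the log2 fold changes were 0.01 (95% interval -0.19 to 0.21) and 0.03 (-0.17 to 0.22), and neither was called.

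The other inhibitors moved less. Cdkn2c (ENSMUSG00000028551.14, chr4:109660876-109667189, minus strand), which encodes the INK4 inhibitor p18, had 25.5, 23.0, 21.6 and 24.6 CPM in basal Control cells and 16.1, 20.4, 20.4 and 16.2 CPM in DKD cells, without overlap. It fell in DKD cells to 0.762 times the Control level (log2 fold change -0.39, SE 0.13, adjusted p = 0.0321). That call was lost without Control replicate 4 (-0.37, adjusted p = 0.0744), DKD replicate 1 (-0.34, adjusted p = 0.108) or DKD replicate 4 (-0.34, adjusted p = 0.103), with only the groups compared in the fit (adjusted p = 0.0877), and with every gene of at least 1 count tested (adjusted p = 0.0635). Cdkn2c was at 0.824 times Control in FoxK1 KD cells (adjusted p = 0.175) and 0.871 times in FoxK2 KD cells (adjusted p = 0.581). Cdkn1a (ENSMUSG00000023067.13, chr17:29090976-29100727, plus strand), which encodes the p53 target p21, had 326, 208, 220.1 and 243 CPM in Control cells and 269, 290.3, 293 and 269 CPM in DKD cells. Its log2 fold change in DKD cells was 0.17 (SE 0.10, adjusted p = 0.2496), and without Control replicate 1, the highest Control value, it was 0.32 (adjusted p = 0.00839).

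The sequence around the start sites of the members was searched for letters that forkhead factors are known to bind. RefSeq promoters (GRCm38.p6), running from 250 bases before to 50 bases after a start, were given for 7 of the 10 members, with 10 starts in all. Searched on both strands, GTAAACA was present in 1 of the 10 windows, at the upstream start of Ccnd3, and in 3.65% of 32851 windows in all. TAAACA, which lies within GTAAACA, was present at the same place and in the window of Cdkn1b, and in 13.4% of all windows. Both matches lie on the minus strand, and the printed strand therefore shows their reverse complement in capitals. For the windows with a match, the 250 bases before the start are printed, chr6:134920151-134920400 for Cdkn1b and chr17:47504801-47505050 for Ccnd3.
Cdkn1b: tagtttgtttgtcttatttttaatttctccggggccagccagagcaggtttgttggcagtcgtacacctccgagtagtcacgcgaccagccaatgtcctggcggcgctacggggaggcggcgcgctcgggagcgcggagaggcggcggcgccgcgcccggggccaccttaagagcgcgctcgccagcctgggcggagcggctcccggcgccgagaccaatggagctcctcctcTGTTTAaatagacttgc
Ccnd3: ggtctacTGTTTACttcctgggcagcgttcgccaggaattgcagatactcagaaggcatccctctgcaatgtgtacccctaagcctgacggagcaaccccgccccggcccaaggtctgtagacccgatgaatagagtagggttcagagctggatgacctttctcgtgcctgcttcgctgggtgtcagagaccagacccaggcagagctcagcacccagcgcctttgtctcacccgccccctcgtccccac
The Cdkn1b match begins 17 bases and the Ccnd3 match 243 bases before the start. The windows of Cdkn2c, which was also called in DKD cells, held no forkhead match. None of the 10 windows held the E2F letters TTTCGCGC, TTTGGCGC, TTTCCCGC or TTTGCCGC, which 2.26% of all windows held, or the CRE letters TGACGTCA, which 1.79% held. A match is a description of the letters and not evidence of binding. By chromatin immunoprecipitation the paper found FoxK1 at the promoter of Cdkn1b after insulin.

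The E cyclins and the kinases had no call at baseline. Ccne1 (ENSMUSG00000002068.16, chr7:38097984-38107534, minus strand) encodes cyclin E1, and its log2 fold changes were -0.22 in FoxK1 KD, 0.16 in FoxK2 KD and 0.33 in DKD cells, and the 95% intervals all held 0. Ccne2 (ENSMUSG00000028212.16, chr4:11191351-11204779, plus strand) encodes cyclin E2, and its values were 0.07, -0.03 and -0.28, also with intervals that held 0. These intervals reach at most 0.78 above and 0.69 below 0, so that changes of that size could not be told from none at 16 to 91 counts per library over all samples. Cdk6 (ENSMUSG00000040274.11, chr5:3341485-3531008, plus strand), a partner of D cyclins, had log2 fold changes of 0.14, 0.08 and -0.02.

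Cdk4 (ENSMUSG00000006728.12, chr10:127063534-127067920, plus strand), the other kinase partner of D cyclins, turned on a single library. Its level in basal Control cells was 1126 CPM in replicate 1 and 475, 550.0 and 474 CPM in the others. It was 548, 454, 395 and 436 CPM in FoxK1 KD, 478, 588, 597 and 642 CPM in FoxK2 KD, and 632, 619, 732 and 604 CPM in DKD cells. With all libraries the log2 fold change was -0.51 in FoxK1 KD (SE 0.17, adjusted p = 0.0504), -0.18 in FoxK2 KD and -0.02 in DKD cells. Without Control replicate 1 it was -0.12 in FoxK1 KD (adjusted p = 0.656), 0.21 in FoxK2 KD (adjusted p = 0.573) and 0.37 in DKD cells (adjusted p = 0.0142). The FoxK1 KD comparison was called without Control replicate 2, 3 or 4 or FoxK1 KD replicate 1 (-0.64 to -0.59, adjusted p = 0.0132 to 0.0378). It was also called with every gene of at least 1 count tested (-0.52, adjusted p = 1.025e-06). The same Control library held the lowest Ccnd1, Ccnd2 and Cdkn1b and the highest Cdkn1a of its group. Cdk4 overlaps exons of Tspan31 on the other strand, which had 12665 counts against 62307 for Cdk4.

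**Figure D2:**
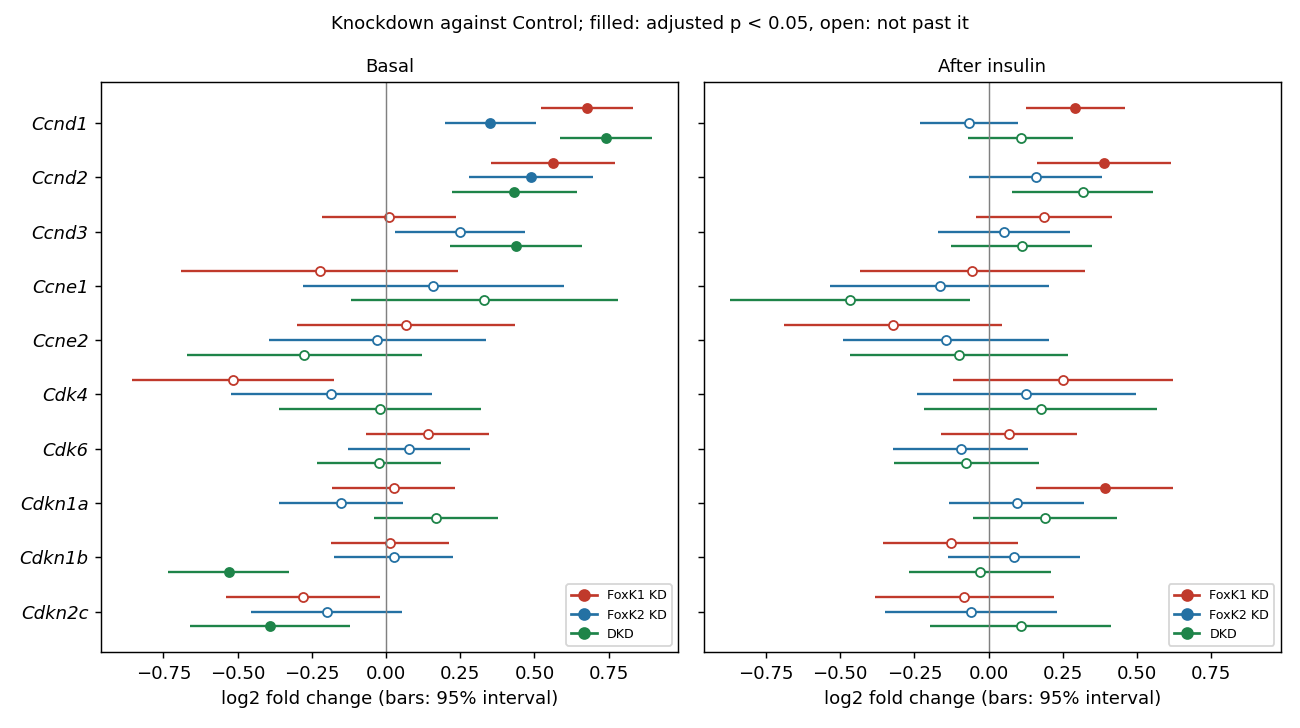
Log2 fold change of each member in the 3 knockdowns, coloured as in the key, against Control cells, at baseline (left) and after insulin (right), with 95% intervals as bars; filled points passed an adjusted p of 0.05. At baseline Ccnd1 and Ccnd2 lie above 0 in all 3 knockdowns and Cdkn1b lies below 0 in DKD cells (-0.53), while after insulin only Ccnd1, Ccnd2 and Cdkn1a in FoxK1 KD cells are filled.

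The response to insulin was then compared with the basal state within each genotype. The E cyclins and Ccnd3 rose in all 4 genotypes, and Ccne1 was 3.12-fold higher after insulin in Control cells. Ccnd2 rose in all but FoxK2 KD cells, whereas Ccnd1 passed the test in Control cells only. Cdkn1b fell in Control, FoxK1 KD and FoxK2 KD cells. In Control cells 5 members rose and 1 fell by edgeR's test, against 12.4% and 13.1% of all genes tested. In FoxK1 KD cells 5 rose and 1 fell, against 16.2% and 15.4% of genes, and in FoxK2 KD cells 3 rose and 1 fell, against 14.4% and 13.7%. In DKD cells 5 rose and 0 fell, against 8.31% and 7.99% of genes. Basal and insulin libraries did not overlap for 5 members and 25% of all genes in Control, and 7 and 31.9% in FoxK1 KD cells. The values were 3 and 30% in FoxK2 KD, and 5 and 28.7% in DKD cells. With a fold change above 1.5 also required, Ccnd3, Ccne1 and Ccne2 were called in Control cells (9.32% of all genes), Ccnd3, Ccne1 and Cdkn1b in FoxK1 KD cells (10.4%), Ccnd3, Ccne1 and Ccne2 in FoxK2 KD cells (8.5%), and Ccne1 and Ccne2 in DKD cells (5.61%). Bulk RNA cannot tell fewer cells in a state from less RNA per cell.

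Ccne1 libraries did not overlap between the basal and insulin groups in any genotype. Basal levels were 7.655, 7.25, 6.70 and 7.68 CPM in Control, 5.66, 5.94, 7.53 and 5.89 CPM in FoxK1 KD, 10.2, 7.53, 6.70 and 8.79 CPM in FoxK2 KD, and 10.3, 7.27, 9.25 and 10.01 CPM in DKD cells. Insulin levels were 21.4, 20.2 and 27.35 CPM in Control, 21.1, 24.6, 17.4 and 24.9 CPM in FoxK1 KD, 20.1, 13.5, 27 and 21.7 CPM in FoxK2 KD, and 22.2, 13.2 and 13.7 CPM in DKD cells. The highest basal library of all, at 10.3 CPM, was below the lowest insulin library, at 13.2 CPM. The log2 fold change was 1.64 in Control (SE 0.20, adjusted p = 1.99e-07), 1.81 in FoxK1 KD (SE 0.21, adjusted p = 3.70e-08) and 1.31 in FoxK2 KD cells (SE 0.19, adjusted p = 2.26e-06). In DKD cells it was 0.84 (SE 0.21, adjusted p = 0.00541), which became 0.54 (adjusted p = 0.129) without DKD insulin replicate 1, the library at 22.2 CPM.

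Ccne2 rose from 9.36, 9.002, 8.435 and 8.75 CPM in basal Control cells to 17.7, 14.2 and 19.5 CPM after insulin. In DKD cells it rose from 8.04, 6.40, 7.404 and 7.45 CPM to 15.6, 13.9 and 17.9 CPM, again without overlap. FoxK1 KD libraries did not overlap either, with 7.999 to 10.6 CPM at baseline and 11.1 to 15.7 CPM after insulin. FoxK2 KD libraries did, with 10.8, 8.71, 7.13 and 8.57 CPM at baseline and 10.4, 15.7, 17.3 and 19.8 CPM after insulin. The log2 fold change was 0.95 in Control (SE 0.18, adjusted p = 1.46e-04), 0.83 in FoxK2 KD (SE 0.17, adjusted p = 3.16e-04) and 1.13 in DKD cells (SE 0.19, adjusted p = 7.74e-05). In FoxK1 KD cells it was 0.56 (SE 0.18, adjusted p = 0.0179), and that call was lost without FoxK1 KD basal replicate 3 (0.48, adjusted p = 0.0665), insulin replicate 2 (0.48, adjusted p = 0.0762) or insulin replicate 3 (0.51, adjusted p = 0.0534), and with every gene of at least 1 count tested (adjusted p = 0.0611). Ccne2 overlaps exons of Ints8 on the other strand, which had 8415 counts against 1256 for Ccne2.

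Ccnd3 was 50.6, 51.2 and 49.7 CPM in Control cells after insulin, all above the 28.2 to 30.3 CPM of the basal libraries. It was 52.8, 55.6, 64.35 and 57.5 CPM in FoxK1 KD, 48.9, 50.9, 59.8 and 50.4 CPM in FoxK2 KD, and 56.8, 49.1 and 56.8 CPM in DKD cells after insulin. All insulin libraries lay between 48.9 and 64.35 CPM and all basal ones between 23.4 and 44.5 CPM. The log2 fold change was 0.80 in Control (SE 0.11, adjusted p = 2.29e-06), 0.98 in FoxK1 KD (SE 0.11, adjusted p = 2.12e-08), 0.60 in FoxK2 KD (SE 0.10, adjusted p = 3.55e-05) and 0.47 in DKD cells (SE 0.11, adjusted p = 0.00313).

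Ccnd1 rose with insulin in Control cells, to 599, 629 and 580.3 CPM, above every basal Control library. The rise was 1.45-fold (log2 fold change 0.54, SE 0.08, adjusted p = 5.50e-06). After insulin it was 759.9, 734, 713 and 746 CPM in FoxK1 KD, 629, 541, 570 and 565 CPM in FoxK2 KD, and 659.6, 604 and 685 CPM in DKD cells. The log2 fold change was 0.16 in FoxK1 KD (95% interval 0.002 to 0.31, adjusted p = 0.113), 0.12 in FoxK2 KD (-0.03 to 0.28, adjusted p = 0.227) and -0.09 in DKD cells (-0.26 to 0.07, adjusted p = 0.483). Though not called, FoxK1 KD libraries after insulin all lay above the basal ones, at 651 to 685.5 CPM, while those of FoxK2 KD and DKD cells overlapped. Only in DKD cells was the mean after insulin below the basal mean.

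Ccnd2 after insulin was 113, 112 and 101.5 CPM in Control, 140, 137, 131 and 162 CPM in FoxK1 KD, 128, 124, 115 and 119 CPM in FoxK2 KD, and 133, 128 and 145 CPM in DKD cells. It rose in Control (log2 fold change 0.48, SE 0.11, adjusted p = 0.00132), FoxK1 KD (0.31, SE 0.10, adjusted p = 0.0183) and DKD cells (0.37, SE 0.11, adjusted p = 0.0177). In FoxK2 KD cells the log2 fold change was 0.15 (95% interval -0.05 to 0.36). The FoxK1 KD call was lost without basal replicate 1 (0.26, adjusted p = 0.0715) or insulin replicate 4 (0.24, adjusted p = 0.0955), and the DKD call without basal replicate 1 (0.31, adjusted p = 0.0844), basal replicate 3 (0.33, adjusted p = 0.0559) or insulin replicate 3 (0.31, adjusted p = 0.0928). In Control cells the adjusted p was 0.0565 with only the groups compared in the fit.

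Cdkn1b after insulin was 176, 179 and 191 CPM in Control, 168, 163, 184 and 150.3 CPM in FoxK1 KD, and 178, 195, 193.5 and 206 CPM in FoxK2 KD cells. In DKD cells it was 170.5, 189.6 and 175 CPM, which overlapped the basal DKD libraries. It fell in Control to 0.680 times the basal level (log2 fold change -0.56, SE 0.11, adjusted p = 2.42e-04), in FoxK1 KD to 0.617 times (-0.70, SE 0.10, adjusted p = 3.31e-06) and in FoxK2 KD cells to 0.7098 times (-0.49, SE 0.10, adjusted p = 2.91e-04). In DKD cells the log2 fold change was -0.05 (95% interval -0.28 to 0.17, adjusted p = 0.790). With only the groups compared in the fit, the Control value was -0.55 (adjusted p = 0.0503). Basal DKD cells and the 4 insulin groups therefore lay together between 150.3 and 206 CPM, while the other 3 basal groups, apart from Control replicate 1, lay between 251 and 318 CPM. Apart from that replicate these are the same 18 and 12 libraries that the genes of the library division separate, so this grouping of Cdkn1b cannot be told apart from that division.

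**Figure D3:**
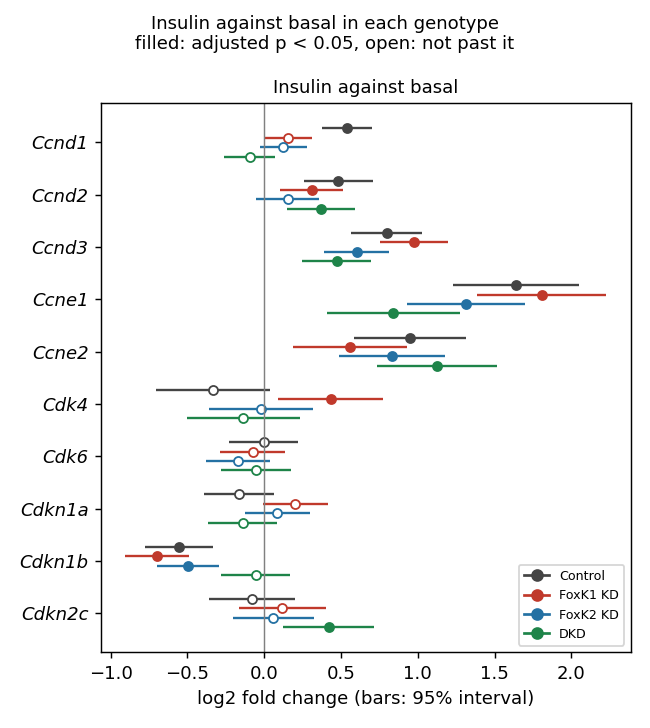
Log2 fold change of each member after insulin against basal in the 4 genotypes, coloured as in the key, with 95% intervals as bars; filled points passed an adjusted p of 0.05. Ccnd3, Ccne1 and Ccne2 are filled and above 0 in all 4 genotypes, Ccnd1 is filled in Control cells only (0.54), and Cdkn1b is filled and below 0 in all but DKD cells (-0.05).

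The remaining members gave few calls with insulin. Cdk4 rose in FoxK1 KD cells (log2 fold change 0.43, SE 0.17, adjusted p = 0.0469), from 395 to 548 CPM at baseline to 584, 606, 601 and 685 CPM. That call was lost without any 1 of FoxK1 KD basal replicates 2, 3 and 4 or insulin replicates 1, 2, 3 and 4 (0.36 to 0.45, adjusted p = 0.0642 to 0.142), with DESeq2 (adjusted p = 0.0871) and with GC content and gene length corrected for (0.30, adjusted p = 0.131). In Control cells Cdk4 was not called (-0.33, adjusted p = 0.183). It was called there with every gene of at least 1 count tested (-0.35, adjusted p = 0.00498), while without Control basal replicate 1 its value was 0.06 (adjusted p = 0.755). Cdkn2c rose in DKD cells (0.42, SE 0.14, adjusted p = 0.0428), to 23.9, 25.1 and 23.7 CPM, within 21.6 to 25.5 CPM as in basal Control cells. The call was lost without DKD basal replicate 1 or 4 or insulin replicate 1, 2 or 3 (0.36 to 0.44, adjusted p = 0.0799 to 0.137), with DESeq2 (adjusted p = 0.0661), with the replicate block (adjusted p = 0.0508) and with every gene of at least 1 count tested (adjusted p = 0.1202). Cdkn1a was not called in any genotype, and without FoxK1 KD basal replicate 1 its log2 fold change in FoxK1 KD cells was 0.29 (adjusted p = 0.0400) in place of 0.20 (adjusted p = 0.130). Cdk6 had log2 fold changes between -0.17 and 0.00 in the 4 genotypes, with no call.

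After insulin, few members differed between the knockdowns and Control cells. In FoxK1 KD cells 3 members rose by edgeR's test (Ccnd1, Ccnd2 and Cdkn1a) and 0 fell, against 1.86% and 1.72% of all genes tested. Ccnd1 was 1.22-fold higher (log2 fold change 0.29, SE 0.08, adjusted p = 0.0370) and Ccnd2 1.31-fold (0.39, SE 0.11, adjusted p = 0.0406). Cdkn1a was 295.5, 296, 281 and 295 CPM against 241, 219.7 and 207.5 CPM in Control cells, without overlap (0.39, SE 0.11, adjusted p = 0.0435). Each of the 3 calls was lost without Control insulin replicate 1, 2 or 3 or FoxK1 KD insulin replicate 1, 2 or 4, as were those of Ccnd1 and Cdkn1a without FoxK1 KD insulin replicate 3 (log2 fold change 0.25 to 0.45, adjusted p = 0.0508 to 0.178). With the replicate block the adjusted p of Ccnd1 was 0.0701 and that of Ccnd2 0.0723, and with every gene of at least 1 count tested that of Ccnd1 was 0.144. None of the 3 reached a 1.5-fold change, as 1.33% of all genes did. Libraries of FoxK1 KD and Control cells after insulin did not overlap for 4 members and 16% of all genes.

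In FoxK2 KD cells after insulin 0 members rose and 0 fell, against 0.0088% and 0.0176% of all genes by edgeR, and 0 members had an unadjusted p below 0.05, as 6.03% of all genes did. In DKD cells after insulin 0 members rose and 0 fell, against 0.871% and 0.343% of all genes by edgeR, and 2 members had an unadjusted p below 0.05, as 12.7% of all genes did. DESeq2 and limma-voom called 0 members in either comparison. Those 2 in DKD cells were Ccnd2 (log2 fold change 0.32, SE 0.12, adjusted p = 0.197) and Ccne1 (-0.47, SE 0.20, adjusted p = 0.291). At an adjusted p below 0.25 Ccnd2 was called in DKD cells, with 6.66% of all genes. Ccnd1 had a log2 fold change of -0.06 (95% interval -0.23 to 0.10) in FoxK2 KD and 0.11 (-0.07 to 0.28) in DKD cells, and Cdkn1b 0.09 (-0.14 to 0.31) and -0.03 (-0.27 to 0.21).

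Whether the response to insulin itself differed from Control was tested as an interaction. It equals the difference from Control after insulin less that at baseline, so it is not independent of the baseline comparisons. DKD cells differed from Control by 0.11 after insulin and 0.74 at baseline for Ccnd1, and by -0.03 and -0.53 for Cdkn1b. In DKD cells Ccnd1 thus had a smaller response, by -0.63 on the log2 scale (SE 0.12, 95% interval -0.87 to -0.40, adjusted p = 0.00211). The Control response crosses the division of the libraries and the DKD response does not, so this difference cannot be told apart from that division. It was 1 of 10 members that fell in this comparison while 0 rose, against 0.537% and 1% of all genes by edgeR. With only the groups compared in the fit, the Ccnd1 difference was -0.64 (adjusted p = 0.0768), and 0.286% of all genes were called. The Cdkn1b difference in DKD cells was 0.50 (SE 0.15, adjusted p = 0.0907), and without Control basal replicate 1 it was 0.63 (adjusted p = 0.00234), which brought the members called to 2 and the genes called from 175 of 11368 to 358 of 11356 (3.15%). At an adjusted p below 0.25, Ccnd1, Ccne1, Cdkn1b and Cdkn2c were called in DKD cells, with 9.88% of all genes.

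In FoxK1 KD cells 0 members rose and 0 fell in the interaction, as for 0% of all genes by edgeR in each direction, and 3 members (Ccnd1, Cdk4 and Cdkn1a) had an unadjusted p below 0.05, as 13.4% of all genes did. The Ccnd1 difference there was -0.38 (SE 0.11, adjusted p = 0.179 by edgeR and 0.0459 by DESeq2, which called 1 member and 0.211% of all genes, while limma-voom called 0). At an adjusted p below 0.25 Ccnd1 and Cdk4 were called in FoxK1 KD cells, with 3.4% of all genes. In FoxK2 KD cells 0 members rose and 0 fell, as for 0% of all genes by edgeR, 2 members (Ccnd1 and Ccnd2) had an unadjusted p below 0.05, as 5.5% of all genes did, and DESeq2 and limma-voom called 0. The Ccnd1 difference there was -0.42 (SE 0.11, adjusted p = 0.883), so that the estimates for Ccnd1 were below 0 in all 3 knockdowns, which share the 7 Control samples.

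The balance of Ccnd1 to Cdkn1b per kb of exon put these patterns side by side. The ratio was 1.53 ± 0.21 (SD, n = 4) in basal Control, 1.88 ± 0.11 in FoxK2 KD, 2.4 ± 0.27 in FoxK1 KD and 3.63 ± 0.39 in DKD cells. After insulin it was 3.21 ± 0.24 (n = 3) in Control, 2.90 ± 0.35 in FoxK2 KD, 4.31 ± 0.43 in FoxK1 KD and 3.53 ± 0.40 (n = 3) in DKD cells. The basal Control libraries had ratios of 1.31 to 1.74 and the basal DKD libraries 3.28 to 4.19, which overlapped the insulin-treated Control libraries at 2.94 to 3.40, and which stand on the same side of the library division as these. The ratio of Cdk4 to Cdk6 per kb was 12 to 19 as group means.

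**Figure D4:**
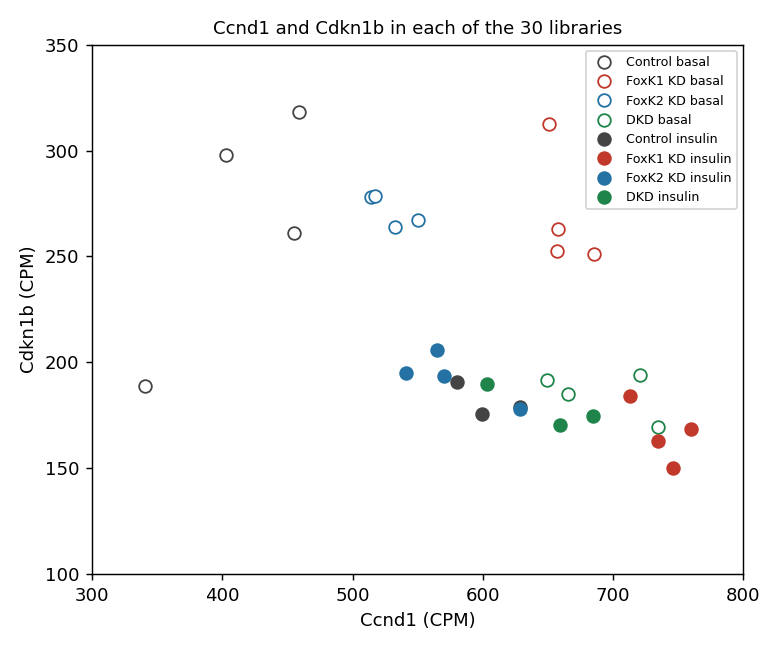
Ccnd1 (x axis, CPM) against Cdkn1b (y axis, CPM) in each of the 30 libraries, coloured by genotype, with open points for basal and filled points for insulin; the axes do not start at 0. Basal DKD libraries lie among the insulin libraries, at 649 to 735 CPM of Ccnd1 and 169 to 194 CPM of Cdkn1b, while basal FoxK1 KD libraries have high Ccnd1 and Cdkn1b of 251 to 313 CPM.

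Other genes of the pathway were counted from lists. With insulin, 12.4% of all genes tested rose and 13.1% fell in Control, and 16.2% and 15.4% in FoxK1 KD cells. The shares were 14.4% and 13.7% in FoxK2 KD, and 8.31% and 7.99% in DKD cells. At baseline 3.39% rose and 4.71% fell in FoxK1 KD, 0.211% and 0.167% in FoxK2 KD, and 10.3% and 10.8% in DKD cells. After insulin 0.871% of all genes were higher and 0.343% lower in DKD than in Control cells. Of 12 S phase genes, which copy DNA or license its origins, 11 rose and 1 fell with insulin in Control cells, with a median log2 fold change of 0.77 against -0.01 over all genes. Cdc6 (1.14, SE 0.14, adjusted p = 1.10e-07) and Mcm4 (0.87, SE 0.11, adjusted p = 1.54e-07) rose the most, and Cdt1 fell (-0.39, SE 0.14, adjusted p = 0.0354). In FoxK1 KD 10 rose and 0 fell, in FoxK2 KD 11 and 0, and in DKD cells 9 and 1. The basal knockdowns did not have this rise: 0 S phase genes rose and 5 fell in FoxK1 KD, 0 and 0 were called in FoxK2 KD, and 2 (Tyms and Mcm7) rose and 1 (Rrm2) fell in DKD cells. Ccnd1 was therefore higher in basal FoxK1 KD and DKD cells without a rise across the S phase list. Of 12 G2/M genes, 0 rose and 6 fell in basal FoxK1 KD and 0 rose and 5 fell in basal DKD cells, among them Top2a (-0.62, SE 0.08, adjusted p = 1.91e-06) and Bub1 (-0.55, SE 0.11, adjusted p = 5.81e-04), and 3 rose and 0 fell with insulin in Control cells. After insulin, 0 S phase genes were higher and 3 lower in DKD than in Control cells, among them Rrm2 (-0.45, SE 0.10, adjusted p = 0.0137) and Mcm3 (-0.39, SE 0.09, adjusted p = 0.0269). FoxK1 KD cells after insulin likewise had 0 higher and 3 lower, against 1.86% and 1.72% of all genes. FoxK2 KD cells had 0 and 0, against 0.0088% and 0.0176%.

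**Figure D5:**
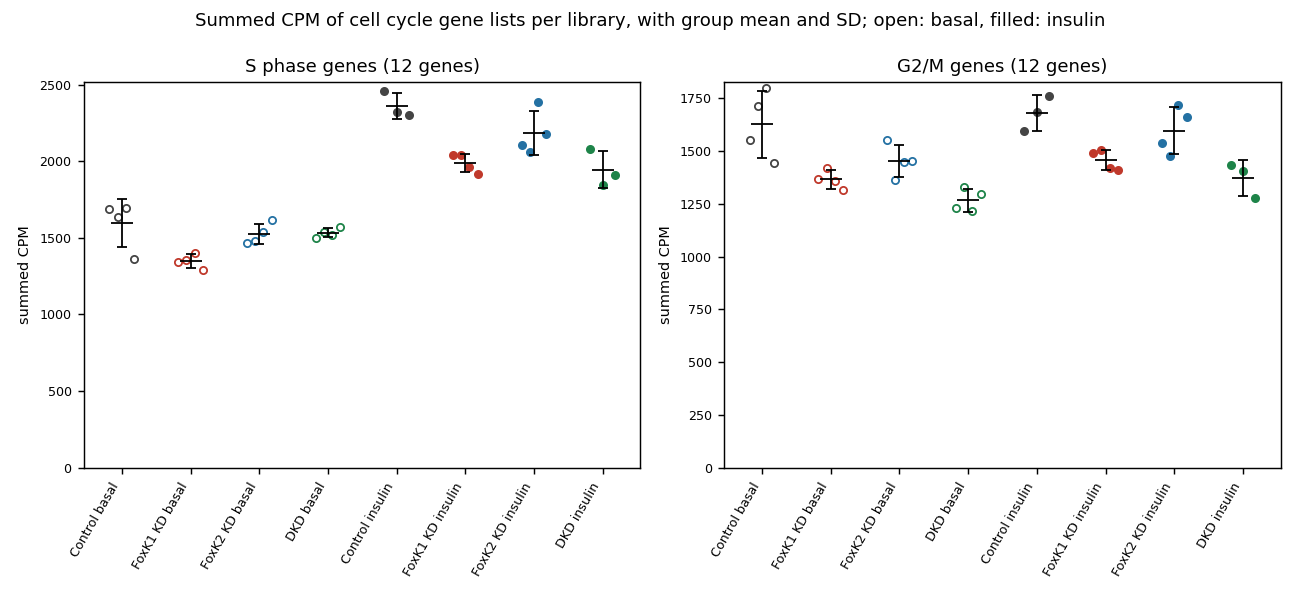
Summed CPM (linear axis from 0) of 12 S phase genes (left) and 12 G2/M genes (right) in each library, with a bar for the group mean and whiskers for 1 SD; open points are basal and filled points insulin. The S phase sum is 1287 to 1697 CPM in basal and 1843 to 2456 CPM in insulin libraries, and the G2/M sum is 1214 to 1330 CPM in basal DKD against 1442 to 1796 CPM in basal Control libraries.

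With insulin in Control cells 12.4% of all genes rose and 13.1% fell, and in basal DKD cells 10.3% and 10.8%. No list was tested against these shares. Of 4 other CDK inhibitor genes, 3 could be tested, and in basal DKD cells Cdkn2a (log2 fold change 0.92, SE 0.18, adjusted p = 3.80e-04) and Cdkn2b (0.67, SE 0.16, adjusted p = 0.00282), both INK4 genes, rose. With insulin in Control cells 0 of them rose and 0 fell. Of 13 pocket protein, E2F and DP genes, 3 rose and 2 fell with insulin in Control cells, among them E2f2 (1.05, SE 0.33, adjusted p = 0.0171), a factor that drives S phase genes, and Rbl2 (-0.69, SE 0.11, adjusted p = 1.42e-05), a pocket protein of quiescent cells. In basal DKD cells 0 of these 13 rose and 2 fell (Rbl1 and Tfdp1). Of 11 genes in the turnover of G1 cyclins and p27, 3 rose and 2 fell with insulin in Control cells, with Skp2, which marks p27 for degradation, higher (0.57, SE 0.13, adjusted p = 0.00119) and Fbxo31, an adaptor for cyclin D1 degradation, lower (-0.63, SE 0.14, adjusted p = 9.50e-04). In basal DKD cells Fbxo31 was higher (0.58, SE 0.12, adjusted p = 5.47e-04) and Skp1a lower (-0.53, SE 0.07, adjusted p = 6.35e-06), with 2 up and 2 down in all. Of 6 genes for Cdk2 and CDK activation, 2 rose (Cdc25a and Cdk2) and 1 fell (Mnat1) with insulin in Control cells, and 1 rose (Cdc37) and 0 fell in basal DKD cells. Of 8 genes for upstream regulators and cyclin G, 0 rose and 4 fell with insulin in Control cells, Foxo4 (-0.72, SE 0.14, adjusted p = 3.22e-04) and Ccng2 (-0.68, SE 0.11, adjusted p = 1.82e-05) by the most, and Trp53 rose and Ccng2 fell in basal DKD cells.

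Markers of cell type moved as well, and the same shares of all genes stand beside their counts. Of the 10 hepatocyte markers tested, 3 rose and 0 fell in basal DKD cells, and 4 rose and 0 fell with insulin in Control cells. Of the 3 cholangiocyte markers tested, Krt7 rose (0.74) and Sox9 fell (-0.45) in basal DKD cells, and Sox9 fell (-0.47) with insulin in Control cells. Csf1r, the 1 leukocyte marker tested, rose in basal DKD cells (0.79) and fell with insulin in Control cells (-1.70), and its list summed to 8.22 to 12.9 CPM in basal Control and 15.7 to 18.2 CPM in basal DKD libraries. The part of these markers in the results for the members was not tested.

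The profiles most like those of the members with the widest range were found by Pearson correlation of log2 CPM over the 30 samples among 9406 genes, as a description, since all points share libraries and the basal and insulin groups. For Ccne1 they were Aars (r = 0.933), Aldh18a1 (0.931) and Tubb4b (0.930). For Ccne2 they were Kpna2 (0.909), Serp1 (0.908) and Slc7a11 (0.899), and for Ccnd3 Krt20 (0.928), Dnajb11 (0.912) and Nup85 (0.908).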

How the data were processed

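RNA-seq libraries of 30 AML12 samples were made by the authors from polyadenylated RNA. The authors deposited raw gene counts, 1 table per sample, with no normalization. Per the submitters' processing notes, CASAVA 1.8, STAR 2.4.2a, featureCounts and GRCm38.p4 were used; their order, the strand setting and the annotation release are not given in the sources used here. Symbols, coordinates and exon lengths came from GENCODE M21 (GRCm38), in which 48435 of 49089 identifiers were found, 41427 with the same version.

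Groups came from the labels. Genes were kept by filterByExpr (11368 kept), scaled by TMM, and tested with edgeR 4.0.16 (quasi-likelihood) in R 4.3.3 in 1 model of 8 groups with no covariate. The 13 contrasts were adjusted by Benjamini-Hochberg over all genes tested, and a call needed an adjusted p below 0.05. The 95% intervals come from the same fit and cover the spread between samples. CPM use TMM library sizes, and levels per kb divide by the exon bases of a gene. The procedure was tested on simulated data. Alternatives were DESeq2 1.42.0, limma-voom (limma 3.58.1), other count filters, only the groups compared, a replicate block, a GC and length offset, other call rules and leaving out each sample. Figures were drawn with matplotlib 3.10.9.

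The 10 members and the gene lists were chosen with earlier results of these data known. Named genes were the members, Foxk1 and Foxk2, the 2 largest changes each way per list in DKD against Control cells or with insulin in Control cells, and the 3 genes most like each of the 3 members of widest range; the cell type markers at or near 0 and those of highest level were named after their values were seen. No pair of samples within a group agreed within sampling noise (chi-square per degree of freedom at least 1.7 over 42 pairs), so each counted once.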

Additional observations from a re-analysis of the deposited data

Results flagged for a closer look

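Of 60 sets of 4 samples (10 members in 6 groups), 4 had a library far from the other 3 by Dixon's criterion, where chance gives about 1 in 20. Cdk4 was 1126 CPM in Control basal replicate 1 against 474 to 550.0 CPM in the others. Ccne1 was 7.53 CPM in FoxK1 KD basal replicate 3 against 5.66 to 5.94 CPM. Cdkn1a was 194 CPM in FoxK2 KD basal replicate 1 against 232 to 237 CPM, and 281 CPM in FoxK1 KD insulin replicate 3 against 295 to 296 CPM, a gap that is large only beside the closeness of the other 3. The response of Ccnd1 to insulin differed between DKD and Control cells by -0.63 on the log2 scale in the interaction test of edgeR (adjusted p = 0.00211), from a rise of 0.54 in Control to -0.09 in DKD cells. This difference cannot be told apart from the division of the libraries, which the Control response crosses and the DKD response does not. The part of Control basal replicate 1 in that difference was measured by leaving it out, which gave -0.55 (adjusted p = 0.0017).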

How the results depend on the processing

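Of the members' results under the alternatives, 2133 kept their side of the threshold, and their direction where called, 74 lost a call, 12 gained one and 1 reversed: Cdk4 in DKD against Control cells at baseline, 0.37 without Control basal replicate 1 and -0.15 to 0.37 over the samples left out. An uncalled result that changed sign is among the 2133. Cdk4 in FoxK2 KD against Control at baseline is such a case, at -0.18 with all libraries and 0.21 without Control basal replicate 1. Counts of members called moved as follows. With only the groups compared, FoxK1 KD, FoxK2 KD and DKD against Control at baseline gave 1, 0 and 3 and the DKD interaction 0, while the genes called were 0.426%, 0.00927%, 12.1% and 0.286% of all. At a fold change above 1.5, the same 3 gave 1, 0 and 1, insulin gave 3 in Control, 3 for FoxK1 KD and 2 for DKD, while FoxK2 KD had 3 in place of 4, and FoxK1 KD against Control after insulin gave 0. At an adjusted p below 0.25, FoxK1 KD at baseline gave 4, DKD after insulin 1, and the FoxK1 KD and DKD interactions 2 and 4. With at least 1 count in any sample, the FoxK1 KD and DKD interactions gave 1 (Cdk4) and 2 (Ccnd1 and Cdkn1b), with 0.732% and 1.51% of genes, and DESeq2 gave 1 in the FoxK1 KD interaction, with 0.211%. The cause of these moves was not tested, except that fewer samples enter when only the groups compared are fitted. Leaving out 1 replicate gave 0 to 2 members for FoxK2 KD at baseline (0.044% to 1.13% of genes called), 3 to 5 for insulin in DKD cells (10.1% to 14.8%), 0 to 1 for FoxK1 KD after insulin (2% to 2.73%) and 1 to 2 for the DKD interaction (0.52% to 3.15%).

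Replicate numbers did not pair samples: 99 pairs of the same number had a mean correlation of -0.013 (-0.21 to 0.20), 294 other pairs 0.0043, and 5 of 30 samples correlated best with their own number. With the replicate block FoxK1 KD against Control after insulin gave 1 member (Cdkn1a) in place of 3, with 2.91% of genes called, and no other count of members moved by over 1.5 times. DESeq2 and TMM scaling differed by at most 0.0088 (log2) between group means. Depth limits the E cyclins most, at 16 to 91 counts per library.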
